A study of Oryza sativa Japonica Group with 6 samples.

Results

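Skipped exons whose length is a multiple of 3 were described in grains of rice. Leaving out such an exon removes whole codons and keeps the reading frame, provided the exon lies inside the coding sequence. The members were all exon-skipping events of the authors' splicing table in which the exon end minus the exon start, counted from 0, is divisible by 3. They numbered 1925 of 5134 exon-skipping events (37.5%), in 1832 distinct exons of 1538 genes, and the rule used no measured value. The wild type was the line Zhenong 34, labelled control, with 3 libraries of messenger RNA from grains. The other group was its sgs3 mutant, with 3 libraries of grains and a treatment label naming EMS (ethyl methanesulfonate, a chemical mutagen). The labels give neither the stage of the grains nor the lesion in the mutant. Nor do they say if each library was made from its own plants, and a p-value here measures only how libraries vary, part of which may be technical. Which exons are coding was not determined here, so "in-frame" refers to the length alone.

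A skipped exon, also called a cassette exon, is spliced into some mature transcripts of a gene and left out of others. When its length is a multiple of 3 the protein loses or gains a stretch of residues while the rest of the sequence is read as before. Other lengths shift the frame and often lead to an early stop codon, which can mark the transcript for nonsense-mediated decay. In plants retained introns are the commonest form of alternative splicing and cassette exons are rarer. SGS3 works in plants with an RNA-dependent RNA polymerase in making secondary small RNAs, and it is not known as a splicing factor.

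The measure was the inclusion level, a fraction from 0 (exon always skipped) to 1 (exon always kept). The authors computed it from reads that cross the exon's junctions, each form's reads being scaled by its effective length. Over all exon-skipping events the junction reads summed to between 1955339 and 2581535 per library, and over the in-frame events to between 953530 and 1664128. The tables list the libraries of a group in one cell without replicate numbers, so they are called library 1, 2 and 3 in the order listed. Grain identity was checked on gene expression. Endosperm markers (glutelins, prolamins and granule-bound starch synthase) summed to between 43100 and 303000 TPM (length-scaled transcript abundance) in the wild type and between 367000 and 425000 in sgs3. Embryo and aleurone markers summed to between 1420 and 6500 TPM, and green tissue markers to at most 408 TPM. The SGS3 homolog LOC_Os12g09580 stood at 94.92, 40.86 and 53.45 TPM in wild-type replicates and 8.73, 11.59 and 29.24 in sgs3. Its sgs3 values were all below the wild type, and the limma adjusted p was 0.0436 on TPM and 0.0978 after scaling. A second homolog, LOC_Os12g09590, ran from 2.03 to 3.67 TPM. A point mutation need not alter a level, so this is no check of the lesion. The endosperm sum was higher in every sgs3 library than in any wild-type library, and its part in the splicing values was not tested.

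Most of the in-frame exons tested were kept in nearly all transcripts of both genotypes. An event was tested when every library had at least 20 junction reads, which held for 1014 of the 1925 events (52.7%), in 985 exons of 831 genes. The mean inclusion level of these events was 0.9152 ± 0.0050 in the wild type and 0.9157 ± 0.0023 in sgs3 (SD of library means, n = 3). The library means ran from 0.9101 to 0.92 in the wild type and from 0.9136 to 0.9181 in sgs3, so the ranges overlapped. Without a read minimum the mean over in-frame events was lower, at 0.8689 in the wild type and 0.8708 in sgs3. Of the tested events 829 (81.8%) had a mean of at least 0.95 in both groups and 74 (7.3%) lay below 0.5 in both. A further 106 (10.5%) lay between, and 5 had group means on opposite sides of 0.5. Events whose length is not a multiple of 3 were spread in much the same way, with 79.4% at 0.95 or above in both groups and 7.29% below 0.5. Their mean was 0.9126 ± 0.0061 in the wild type and 0.9148 ± 0.0032 in sgs3 (SD, n = 3).

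**Figure D1:**
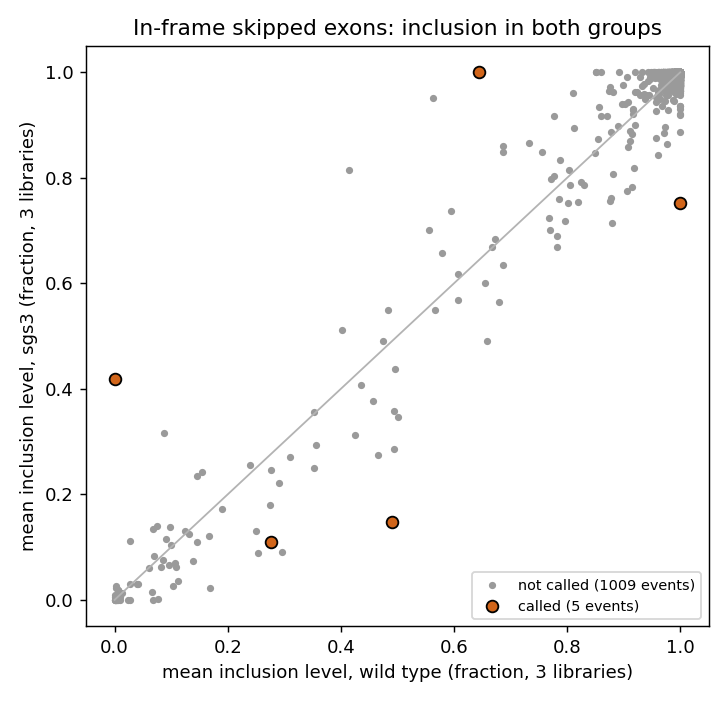
Mean inclusion level in the wild type (x axis) against sgs3 (y axis), each the mean of 3 libraries as a fraction, for the 1014 tested in-frame events. Points lie along the line of equal inclusion and crowd near 1, and the 5 called events, drawn larger, lie off the line.

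The skipped form was thinly covered in most events. A tested in-frame event had a median of 914 junction reads over the 6 libraries together and a median of 3 reads that skip the exon, and 741 events (73.1%) had fewer than 10 skipping reads. The share of tested events at a deposited inclusion of 1, as rounded, ran from 52.4% to 66.1% over the wild-type libraries. It ran from 62.8% to 70.6% over the sgs3 libraries. The ranges overlapped. Intervals and limits from counts cover counting error only, because reads were not counted as separate molecules.

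The exons ranged from 6 to 4455 bases, with a median of 96 and quartiles of 69 and 153. Those of other lengths had a median of 101 bases. The intron before an in-frame exon had a median of 360 bases and the one after it 326 bases, against 404 and 340 for the other events. In 1343 in-frame events (69.8%) the including form matched an annotated transcript with a locus name, and in 280 (14.5%) the skipping form did. The shares were 70.0% and 14.6% for the other events. The authors marked 1511 in-frame events (78.5%) as new. In the 74 tested events below 0.5 in both groups the skipping form was annotated in 47 (63.5%) and the including form in 38 (51.4%). Among the 829 mostly kept events these numbers were 69 (8.32%) and 687 (82.9%). Events of other lengths showed the same pattern. Their shares were 68.1% and 48.7% below 0.5, and 7.79% and 82.9% among those mostly kept. Of the 1832 exons, 130 (7.10%) were also listed in a mutually exclusive exon event, 126 (6.88%) in an alternative 3' splice site event and 65 (3.55%) in an alternative 5' splice site event. The shares for the other lengths were 5.57%, 7.50% and 4.63%.

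Partial skipping was seen most often in the shortest and the longest exons. Mean inclusion over both groups was below 0.9 in 19 of 89 tested events with exons of 6 to 51 bases (21.3%). It was below 0.9 in 42 of 412 events with exons of 54 to 99 bases (10.2%), 28 of 226 of 102 to 150 bases (12.4%) and 22 of 198 of 153 to 300 bases (11.1%). Among 89 events with exons of 303 bases and longer it was 21 (23.6%). Exons of other lengths had 18.8% in the shortest class and 22.7% in the longest, so the pattern was shared with them. These shares are given as a description, since events share genes and libraries.

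**Figure D2:**
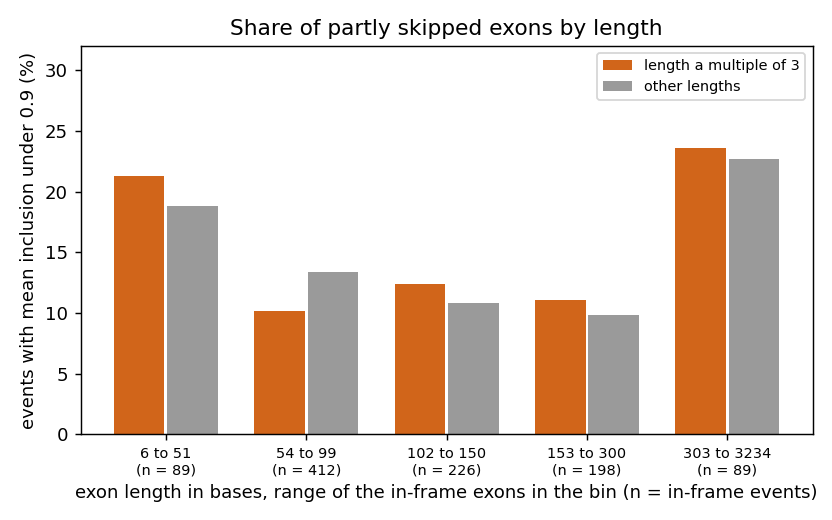
Percent of tested events with a mean inclusion under 0.9 (y axis) by exon length in bases (x axis), for lengths that are multiples of 3 and for other lengths. Both kinds of exon stand highest in the shortest and the longest class, at 21.3% and 23.6% for the in-frame exons.

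The shortest tested exons were close to constitutive. The exon of 6 bases, chr1:150056-150061 on the plus strand in the gene annotated as translocon-associated protein subunit beta (LOC_Os01g01307), encodes at most 2 residues and had inclusion levels of 0.999 to 1 in all libraries. This subunit belongs to a complex at the protein channel of the endoplasmic reticulum. An exon of 21 bases in palmitoyl-protein thioesterase 1 (LOC_Os10g41340) had 0.961 to 1, and one of 24 bases in a DCN1-like protein (LOC_Os06g12690) had 0.994 to 1. Of the longest, the exon of 3234 bases in soluble starch synthase 3 (LOC_Os08g09230) was kept at 0.997 to 1. The other 2 longest events lie in exonuclease DPD1 (LOC_Os03g18940), with 2322 and 2001 bases, and were mostly skipped. They had inclusion levels of 0.077 to 0.160 in the wild type and 0.046 to 0.090 in sgs3. They end at the same base and have the same skipping reads, so they are not independent. None of these 6 events passed the test (quasi-binomial adjusted p of at least 0.468).

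Few in-frame exons differed between wild type and sgs3. An event was called when a quasi-binomial model of its junction reads, with dispersion moderated across events by limma, gave a Benjamini-Hochberg adjusted p under 0.05 over 5471 events of 5 kinds, and mean inclusion differed by at least 0.1. By this rule 5 of the 1014 tested in-frame events were called (0.493%), 2 with higher and 3 with lower inclusion in sgs3. Over all 2565 tested exon-skipping events the share called was 0.468%, with 0.195% higher and 0.273% lower, so the in-frame share lies near the background. The median difference was 0.0010 for in-frame events and 0.0010 for all events, and the median size of the difference was 0.0063 against 0.0070. Inclusion was higher in sgs3 in 562 events, lower in 411 and equal, at the rounding of the deposited levels, in 41. At an unadjusted p under 0.05 there were 109 in-frame events (10.7%), 62 higher and 45 lower in sgs3 among those with a difference, where the background was 9.67%. The groups did not overlap in 64 in-frame events (6.31%) against a background of 6.12%. The count of 5 fell to 3, 1 and 1 without wild-type library 1, 2 or 3 and to 1 without sgs3 library 2. It was 4 without sgs3 library 1 or 3. Where a group showed no read of 1 form, it added no spread to the dispersion, yet its libraries counted in the divisor. The p-value of such an event may therefore be too small. Among the calls described below, those in LOC_Os02g29140, LOC_Os11g18990 and LOC_Os01g12950 are of this kind. So are the first GF14-E event and those of Mediator subunit 11 and glutelin type-B 5.

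The clearest difference was an exon that sgs3 always kept. It has 150 bases, chr2:17260434-17260583 on the minus strand (the sources used here name no genome build), and lies in LOC_Os02g29140, annotated as an ankyrin repeat and protein kinase domain-containing protein. Inclusion was 0.686, 0.696 and 0.550 in wild-type libraries 1 to 3 and 1 in every sgs3 library. The groups were therefore fully apart, at 0.644 ± 0.082 against 1 (SD, n = 3). Skipping reads numbered 16, 39 and 43 in the wild type and 0 of 2090 junction reads in sgs3, which allows a share of up to 0.144%. Including reads numbered 70, 179 and 105 in the wild type and 653, 886 and 551 in sgs3. The log odds of inclusion differed by 7.06 (SE 1.73, natural log, 0.5 read added to each sum; quasi-binomial adjusted p = 6.05e-05). The call held in all 11 alternatives run on it, with differences from 0.309 to 0.382. TPM of the gene was 12.89, 19.15 and 16.95 in wild-type replicates and 45.9, 57.45 and 41.54 in sgs3 replicates, and it rose by 1.51 on the log2(TPM + 1) scale (SE 0.33, limma adjusted p = 0.0436). The skipping form was an assembled transcript, and the including form is annotated.

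The other call with higher inclusion was an exon that wild-type reads never included. It has 72 bases, chr11:10826852-10826923 on the plus strand, in LOC_Os11g18990, annotated as a HIT-like protein, a family of small nucleotide-binding hydrolases. Its annotated transcript skips the exon. Inclusion was 0 in all wild-type libraries, from 94, 37 and 49 skipping reads, and 0 of 180 reads allows up to 1.67% of reads. In sgs3 it was 0.644, 0.511 and 0.099, so library 3 lay far below the other two and still above the wild type. The mean was 0.418 ± 0.284 (SD, n = 3; quasi-binomial adjusted p = 0.0495). The call was lost without any 1 library other than sgs3 library 3, with adjusted p-values from 0.0996 to 0.206, with a minimum of 10 reads (0.0537) and by limma on the arcsine square root of inclusion (0.266). Without sgs3 library 3 the difference was 0.578 (adjusted p = 5.58e-04).

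Among exons with lower inclusion in sgs3 was 1 in a ubiquitin-conjugating enzyme. The exon of 90 bases, chr1:7199064-7199153 on the plus strand, belongs to LOC_Os01g12950, annotated as probable ubiquitin-conjugating enzyme E2 25, one of the enzymes that carry ubiquitin to its targets. Every wild-type read included it (58, 68 and 54 including reads and no skipping read), so its inclusion was 1 in each wild-type library. In sgs3 inclusion was 0.904, 0.645 and 0.709, all below the wild type, with 2, 10 and 9 skipping reads. The mean of 0.753 ± 0.135 (SD, n = 3) differed by -0.247 (quasi-binomial adjusted p = 0.0371). The call was lost without any 1 wild-type library or without sgs3 library 2 or 3 (adjusted p = 0.0993 to 0.135 by the quasi-binomial model) and by limma on transformed inclusion (0.130), and held without sgs3 library 1.

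An exon of 177 bases in CBL-interacting protein kinase 31 (LOC_Os03g20380, chr3:11529560-11529736, minus strand) was mostly skipped and more so in sgs3. This kinase belongs to a family that is switched on by calcium-binding CBL proteins. Inclusion was 0.263, 0.247 and 0.321 in the wild type and 0.085, 0.130 and 0.112 in sgs3. The groups did not overlap, and the difference was -0.168 (quasi-binomial adjusted p = 0.0499). Both forms are annotated transcripts. A shorter version of the same exon, of 129 bases (chr3:11529560-11529688) and also in frame, went from 0.257, 0.215 and 0.291 to 0.062, 0.112 and 0.093. It shares its skipping reads with the longer version and just missed the threshold (quasi-binomial adjusted p = 0.0587). The call of the longer version was lost when any 1 of the 6 libraries was left out, with adjusted p-values from 0.0912 to 0.183 and differences from -0.146 to -0.183. It was also lost with a minimum of 10 reads (adjusted p = 0.0541) and by limma on transformed inclusion (0.0978).

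The fifth call lies in an assembled gene with no locus name or description, MSTRG.5450. Its exon of 87 bases (chr11:14544817-14544903, plus strand) had an inclusion of 0.167, 0.681 and 0.622 in the wild type and 0.192, 0.137 and 0.116 in sgs3. Wild-type library 1 lay within the range of sgs3, so the groups overlapped. It also had 25 junction reads, against 118 and 72 in the other wild-type libraries and 524 to 978 in sgs3. The difference of -0.342 (quasi-binomial adjusted p = 0.0380) was -0.503 without wild-type library 1 (adjusted p = 0.0146). The call was lost without wild-type library 2 (adjusted p = 0.300) or 3 (0.184) or sgs3 library 2 (0.0688), and by limma on transformed inclusion (0.715).

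**Figure D3:**
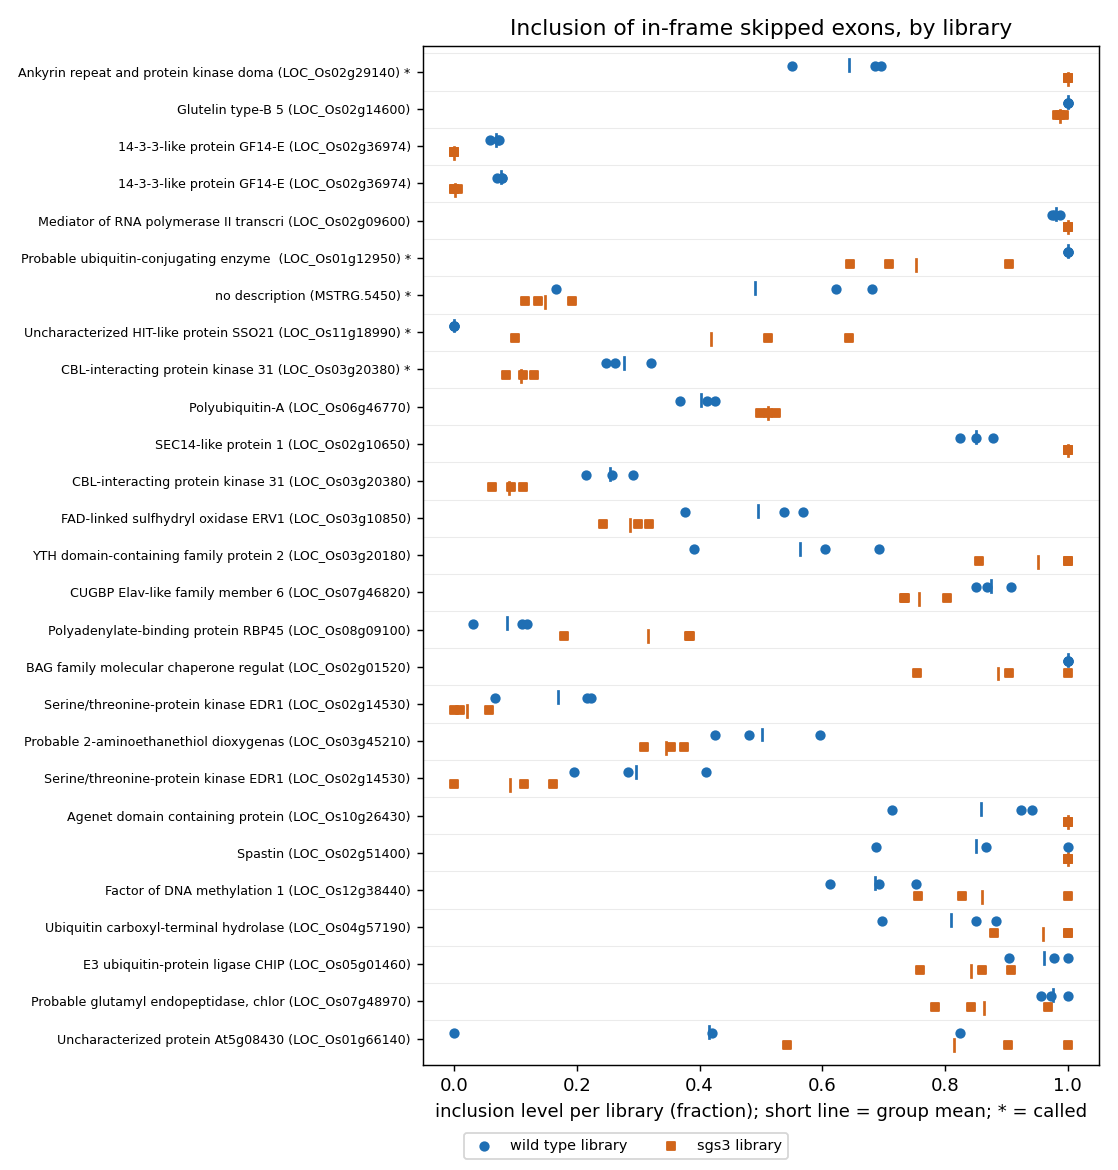
Inclusion level per library (x axis, fraction) for each in-frame event with an adjusted p under 0.05 here or an authors' call, with wild-type libraries as circles, sgs3 libraries as squares and group means as short lines. Called events carry an asterisk, and in 4 of these 5 the 2 groups do not overlap, the exception being MSTRG.5450.

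Another 4 in-frame events passed the adjusted p and had a difference below 0.1 (9 events at any difference, where the background was 0.741%). The 2 nearest the limit share an exon of 1224 bases in the 14-3-3-like protein GF14-E (LOC_Os02g36974, chr2:22333593-22334816, minus strand), one of the proteins that bind phosphorylated partners. In the first of them inclusion was 0.059, 0.071 and 0.073 in the wild type and 0 in every sgs3 library, from 60, 27 and 30 including reads against 0 of 299 reads, which allows up to 1.0% (quasi-binomial adjusted p = 0.00388). In the other, with a different neighbouring exon, it was 0.070, 0.079 and 0.079 against 0, 0 and 0.006 (adjusted p = 0.00697; 0.0503 by limma on transformed inclusion). The long exon was thus a minor form of the wild type and nearly unseen in sgs3. TPM of GF14-E was 431.78, 129.26 and 173.88 in wild-type replicates and 30.99, 33.01 and 82.7 in sgs3 replicates, and it fell by 2.25 on the log2(TPM + 1) scale (SE 0.56, limma adjusted p = 0.0436), which did not pass after scaling (-1.17, adjusted p = 0.0946).

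An exon of 117 bases in Mediator subunit 11 (LOC_Os02g09600), part of the complex that links transcription factors to RNA polymerase II, had inclusion levels of 0.978, 0.987 and 0.974 in the wild type and 1 in each sgs3 library (quasi-binomial adjusted p = 0.0291). The adjusted p was 0.0626 to 0.222 without any 1 library other than wild-type library 2, and 0.0929 by limma on transformed inclusion. Skipping reads numbered 50, 11 and 30 in the wild type and 0 of 2052 reads in sgs3, which allows up to 0.146%. The exon of 468 bases in glutelin type-B 5 (LOC_Os02g14600), a seed storage protein, went the other way. No skipping read was seen among 62918 wild-type reads, which allows up to 0.00477%, and sgs3 had 39, 53 and 199. Inclusion in sgs3 was 0.993, 0.987 and 0.983 (quasi-binomial adjusted p = 6.79e-04; 0.175 by limma on transformed inclusion). Glutelin genes have close copies, and reads may be split among them, so this value is uncertain.

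The authors' own test gave more calls. By the authors' deposited table, 61 in-frame events had an FDR under 0.05 with a difference of at least 0.1, which is 3.17% of the 1924 with a deposited FDR. Over all exon-skipping events the share was 3.35%. By the authors' deposited table, 33 of the 61 had higher and 28 had lower inclusion in sgs3. Of these, 38 had under 20 reads in at least 1 library and were not tested here. Of the 23 that were tested (2.27% of tested in-frame events, where the background was 2.18%), all 5 calls above were among them, and 22 had an unadjusted p under 0.05, against 9.67% of all tested exon-skipping events. The groups did not overlap in 16 of the 23, against 6.12% of all tested exon-skipping events. Both counts come from the values that the authors' test used, so they are no independent support. The 18 that were not called here are described next by what their genes do, and they were picked out after their values were seen.

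Several of these exons lie in genes of RNA-binding proteins. The exon of 84 bases in a YTH domain-containing protein (LOC_Os03g20180), a family that binds RNA carrying N6-methyladenosine, had inclusion levels of 0.391, 0.692 and 0.605 in the wild type and 1, 1 and 0.855 in sgs3. All sgs3 libraries lay above the wild type (difference 0.389, quasi-binomial adjusted p = 0.121; 0.0362 without sgs3 library 3 and 0.181 to 0.276 without any 1 of the others). The exon of 84 bases in the polyadenylate-binding protein RBP45 (LOC_Os08g09100) had 0.031, 0.111 and 0.119 in the wild type and 0.385, 0.383 and 0.180 in sgs3 (adjusted p = 0.129). Its skipping reads went from 652, 191 and 262 to 43, 57 and 123, while including reads were 33, 37 and 55 in the wild type and 42, 55 and 42 in sgs3. TPM of the gene was 203.98, 58.13 and 85.26 in wild-type replicates and 17.04, 24.83 and 38.67 in sgs3 replicates. The exon of 216 bases in a CUGBP Elav-like protein (LOC_Os07g46820) was lower in each sgs3 library, at 0.733, 0.803 and 0.734 against 0.907, 0.868 and 0.851 (adjusted p = 0.121). These 3 did not pass the test.

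A list of splicing and RNA-binding genes was formed by words in the descriptions, and these words match neither the YTH nor the CUGBP Elav-like gene. It gave 39 in-frame events, of which 22 were tested and none was called. At an unadjusted p under 0.05, 1 was higher and 4 were lower in sgs3 (22.7%, background 9.67%), and the median difference was -0.0022. Of the 4, a pair are overlapping versions of 1 exon in LOC_Os09g10930 with the same skipping reads. These numbered only 1, 2 and 0 in sgs3 libraries 1 to 3, and the wild type had none. Another, in the splicing factor SCL30 (LOC_Os02g15310), had 5 skipping reads, all in sgs3 library 2. Within the list, RBP45 had the smallest p and next came an exon of 339 bases in the splicing factor SR45a (LOC_Os06g50890), with 0.225, 0.267 and 0.332 in the wild type and 0.154, 0.253 and 0.130 in sgs3. These overlapped (quasi-binomial adjusted p = 0.413).

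Protein kinase and phosphatase genes held 157 in-frame events. Of 95 tested, 1 was called higher and 1 lower, in the ankyrin repeat kinase and in CIPK31 (2.11%, where the background was 0.468%). At an unadjusted p under 0.05, 4 were higher and 6 lower (10.5%, background 9.67%), so that share lay near the background. Serine/threonine-protein kinase EDR1 (LOC_Os02g14530), named for a regulator of disease resistance in Arabidopsis, has an exon of 57 bases that appears in 2 events with different neighbours. Inclusion was 0.217, 0.224 and 0.067 in the wild type and 0.010, 0.057 and 0 in sgs3 in 1 event. It was 0.283, 0.411 and 0.195 against 0.114, 0.161 and 0 in the other. The groups did not overlap in either, and neither passed (quasi-binomial adjusted p = 0.188 and adjusted p = 0.214).

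Genes of ubiquitin and protein turnover held 143 in-frame events, of which 92 were tested and 1 was called (1.09%, background 0.468%), the E2 enzyme above. At an unadjusted p under 0.05, 6 were higher and 5 lower (12%, background 9.67%). A unit of 228 bases in polyubiquitin-A (LOC_Os06g46770), which codes for ubiquitin in tandem copies, had 0.368, 0.425 and 0.413 in the wild type and 0.511, 0.498 and 0.525 in sgs3. The groups were apart and tight (difference 0.109, quasi-binomial adjusted p = 0.0549). The 228 bases equal 76 codons, and since the copies of ubiquitin are near-identical, reads may be placed in more than 1 way. The exon of 45 bases in a ubiquitin carboxyl-terminal hydrolase (LOC_Os04g57190) had 0.698, 0.850 and 0.883 against 0.880, 1 and 1 (adjusted p = 0.399). The exon of 111 bases in the E3 ligase CHIP (LOC_Os05g01460) had 1, 0.978 and 0.905 against 0.860, 0.908 and 0.760 (adjusted p = 0.412). Both pairs of groups overlapped.

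The 2-aminoethanethiol dioxygenase gene LOC_Os03g45210 carries 6 events on a single exon of 438 bases (chr3:25530057-25530494, minus strand). In plants this annotation is given to cysteine oxidases that take part in oxygen sensing. How much of the exon was skipped depended on the exons that flank it. In 4 of the 6 events inclusion was 0.975 or above in every library, and in another it was 0.930 to 1. In the last, inclusion was 0.426, 0.481 and 0.597 in the wild type and 0.354, 0.374 and 0.310 in sgs3, with no overlap (quasi-binomial adjusted p = 0.188). A different event of the exon reached 0.979, 0.975 and 0.975 in sgs3 from 0.990, 0.994 and 0.995 in the wild type (adjusted p = 0.0549). The 6 events share reads and are not independent.

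Metabolic and organelle genes gave values on both sides. The exon of 69 bases in the sulfhydryl oxidase ERV1 (LOC_Os03g10850), which makes disulfide bonds in mitochondria, had 0.377, 0.538 and 0.569 in the wild type and 0.243, 0.300 and 0.317 in sgs3. The groups did not overlap (quasi-binomial adjusted p = 0.0587; 0.00976 without wild-type library 1 and 0.0974 to 0.254 without any 1 of the others). The exon of 54 bases in a SEC14-like protein (LOC_Os02g10650), a lipid transfer family, had 0.850, 0.878 and 0.825 in the wild type and 1 in all sgs3 libraries. Skipping reads numbered 3, 5 and 8 against 0 of 122 reads (up to 2.46%, quasi-binomial adjusted p = 0.0567). This exon passed by limma on transformed inclusion (adjusted p = 0.0106) and with exon-skipping events fitted alone (0.0256). By the quasi-binomial model the adjusted p was 0.108 to 0.189 without any 1 library. The exon of 249 bases in a chloroplast glutamyl endopeptidase (LOC_Os07g48970) had 1, 0.972 and 0.957 against 0.843, 0.967 and 0.783 (adjusted p = 0.430). The exon of 276 bases in the chaperone regulator BAG7 (LOC_Os02g01520) had 1 in each wild-type library and 0.905, 1 and 0.755 in sgs3 (adjusted p = 0.156).

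The last 4 were of mixed function. The exon of 39 bases in Factor of DNA methylation 1 (LOC_Os12g38440) had 0.612, 0.693 and 0.753 in the wild type and 1, 0.827 and 0.756 in sgs3. In Arabidopsis this protein acts in RNA-directed DNA methylation and carries an XS domain, as SGS3 does. The groups nearly touched (difference 0.175, quasi-binomial adjusted p = 0.360). The exon of 405 bases in an Agenet domain protein (LOC_Os10g26430) had 0.714, 0.923 and 0.941 against 1 in every sgs3 library (adjusted p = 0.286). The exon of 66 bases in the microtubule-severing protein spastin (LOC_Os02g51400) had 1, 0.866 and 0.688 against 1 in every sgs3 library (adjusted p = 0.309). An exon of 57 bases in LOC_Os01g66140, annotated after an uncharacterized Arabidopsis protein, varied from 0 to 0.824 within the wild type and from 0.542 to 1 within sgs3 (adjusted p = 0.520).

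**Figure D4:**
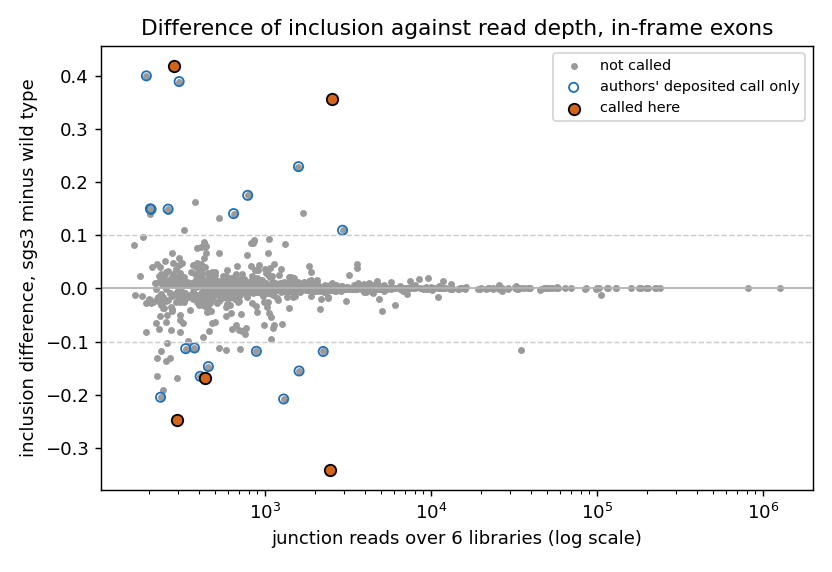
Difference of mean inclusion, sgs3 minus wild type (y axis), against the junction reads of the event over 6 libraries (x axis, log scale) for tested in-frame events, with dashed lines at 0.1 and -0.1. Events with a difference of at least 0.1 in either direction lie mostly at low read numbers, and 5 are called here.

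Of the 41 tested in-frame events with a difference of at least 0.1 (4.04%, background 4.21%), 17 were higher and 24 lower in sgs3. Neither test called 18 of them, 6 higher and 12 lower. The most deeply read of these, in a gene annotated as a transposon polyprotein (LOC_Os12g16900, 108 bases, 35048 reads), had 1, 0.511 and 0.528 in the wild type and 0.555, 0.458 and 0.680 in sgs3. Wild-type library 1 alone lay apart (quasi-binomial adjusted p = 0.604). In floral homeotic protein APETALA 2 (LOC_Os07g13170), a transcription factor, the exon of 102 bases had 0.910, 0.852 and 0.877 against 0.514, 0.696 and 0.932 (adjusted p = 0.475). Group means on opposite sides of 0.5 occurred in 5 events, none of them called. They lay in polyubiquitin-A, the dioxygenase and LOC_Os01g66140 above. The other two were an exon of 612 bases in LOC_Os07g33300 (0.659 and 0.491) and one of 714 bases in an acylglycerol phosphate acyltransferase (LOC_Os01g57360, 0.483 and 0.550).

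In starch, sugar and storage genes, in-frame exons were kept in nearly all transcripts. The list, formed by words in the descriptions, also takes in some genes of other function, and held 53 in-frame events, and 48 of them, in 32 genes, were tested at a median of 32700 reads. The lowest mean inclusion over both groups was 0.955, in chloroplast phosphoglucomutase (LOC_Os10g11140). The lowest value in any library was 0.872, in a gene annotated as the copper-transporting ATPase PAA1 (LOC_Os08g37950). None was called. At an unadjusted p under 0.05 there were 7 (14.6%, background 9.67%), 4 higher, 1 lower and 2 with means equal at the rounding of the deposited levels. The branching enzyme gene LOC_Os06g51084, whose product makes the branch points of amylopectin, carried 6 events in 4 exons. Its exon of 63 bases (chr6:30905438-30905500, minus strand) had 0.990, 0.995 and 0.998 in the wild type and 0.999 in each sgs3 library in 1 event (quasi-binomial adjusted p = 0.137). The other events of this exon showed no such shift. Their group means were 0.99 and 0.99 in the most deeply read (85410 reads, quasi-binomial adjusted p = 0.542), and 0.999 and 0.999 in the last (adjusted p = 0.951). Starch synthase 4 (LOC_Os05g45720) had 0.971, 0.944 and 0.988 against 1, 0.995 and 1 for an exon of 126 bases (adjusted p = 0.242). Sucrose synthase 4 (LOC_Os03g22120) had 0.997, 1 and 0.980 against 1 in all sgs3 libraries for an exon of 96 bases (adjusted p = 0.203).

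Of glutelins, the main storage proteins of the rice endosperm, 6 genes each gave 1 tested event, and inclusion was at least 0.983 in every library. Glutelin type-A 1 (LOC_Os02g25640) had the deepest event, an exon of 501 bases with 1270695 reads. Skipping reads numbered 0 of 379688 in the wild type and 31 of 891007 in sgs3, all 31 in library 2 (quasi-binomial adjusted p = 0.510). Glutelin type-A 2 (LOC_Os10g26060) had 11 skipping reads of 200138 in the wild type and 49 of 617324 in sgs3 (adjusted p = 0.680). Only glutelin type-B 5 passed the adjusted p among these 6.

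The remaining lists gave no call. Transcription and chromatin genes had 93 in-frame events, 50 tested, with 2 higher and none lower at an unadjusted p under 0.05 (4.0%, background 9.67%). The words that formed this list do not match Mediator subunit 11, described above. The smallest p within the list belonged to an exon of 114 bases in LOL2 (LOC_Os12g41700), a zinc finger protein, at 0.929, 0.945 and 0.886 in the wild type and 1 in every sgs3 library (quasi-binomial adjusted p = 0.180). Transport and vesicle genes had 67 events, 38 tested, with 1 higher and 2 lower (7.89%). Nucleobase-ascorbate transporter 3 (LOC_Os12g39420) led them with an exon of 57 bases at 0.021 to 0.025 in the wild type and 0 in sgs3 (quasi-binomial adjusted p = 0.398). The wild-type levels rest on only 1, 1 and 2 including reads of 35, 29 and 59. In sgs3 there was none among 35, 21 and 47 reads, so this separation rests on very few reads. Translation and ribosome genes had 62 events, 32 tested, with 2 higher and 1 lower (9.38%), led by ribosomal protein L18 (LOC_Os07g47780, adjusted p = 0.285). The list of small RNA pathway words (Argonaute, Dicer, RNA-dependent RNA polymerase, SGS3, gene silencing) matched a single in-frame event, which had too few reads to test. These words do not match Factor of DNA methylation 1, described above.

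On TPM, the genes that carry these exons moved much as tested genes did in general. Of the 1538 gene IDs 1497 were in the gene table and 1436 reached 1 TPM in at least 3 libraries. By limma on log2(TPM + 1), 17 of them rose (1.18%) and 342 fell (23.8%) in sgs3, where the background was 1.55% risen and 26.3% fallen. Their median log2 fold change was -0.84 and that of all tested genes -0.86. After median-of-ratios scaling between libraries 17 rose (1.18%) and 7 fell (0.487%), where the background was 1.60% and 1.03%. The medians were 0.09 for these genes and -0.01 for all tested genes. The surplus of falls on TPM was not seen after scaling, but this scaling sets the typical change near 0 and cannot show a general fall. The fallen count depended on single libraries, at 13, 610 and 0 without wild-type replicate 1, 2 or 3, and at 0, 0 and 496 without sgs3 replicate 1, 2 or 3. The risen count was 2, 27 and 0 without wild-type replicate 1, 2 or 3, and 0, 0 and 18 without sgs3 replicate 1, 2 or 3. Shares over all tested genes are not given here for these settings, so such swings cannot be read as particular to the host genes. TPM values are shares of a total, and the endosperm sum took a larger share in every sgs3 library than in any wild-type library. Its part in the falls was not tested. Fewer cells of a type and less RNA per cell also cannot be told apart in these bulk samples.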

How the data were processed

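The authors' deposited splicing tables gave, per library, junction reads and inclusion levels, with group means as a fraction from 0 to 1, and, per the file headers, a p-value and an FDR from junction reads. Program, build and annotation for splicing are not named in the sources used here. Bowtie2, DESeq2 1.12.4, HISAT2 2.1.0, StringTie and RSEM are named, with no role, in the submitters' processing notes. The gene table, named as counts, held TPM values from the authors. The group headings of the read columns contradict those of the inclusion columns. Levels recomputed from wild-type-headed reads differed by at most 0.0005 from those headed sgs3, so groups were taken from the inclusion headings. With groups so taken, junction reads moved in the same direction as TPM in 97.8% of 2496 exon-skipping events whose gene differed at least 2-fold.

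Events of 5 kinds with at least 20 reads in every library (5471, of which 2565 were exon skipping) were fitted with a quasi-binomial logistic model, with dispersion moderated by limma 3.58.1 in R 4.3.3 (5.51 prior degrees of freedom). Genes with at least 1 TPM in at least 3 libraries (16352) were fitted with limma on log2(TPM + 1). Both models were also run on simulated data, but the outcome is not given here and lends no support to the calls. Coordinates are counted from 1. One in-frame event has no values in the table. The members and gene lists were chosen with earlier results of these data known. Named events were the called ones, those just outside the rule, the 3 shortest and 3 longest, and the smallest p of each list. All other named events were chosen after their values were seen. Lists were formed by words in the deposited gene descriptions. Alternatives changed the read minimum, the difference, the adjustment, the test, the libraries and, for TPM, scaling, pseudocount, filter and block. Python 3.11.15 with pandas 2.3.3 made tables and figures.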

Additional observations from a re-analysis of the deposited data

How the results depend on the processing

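The count of 5 called in-frame exons was 1 with a minimum of 50 reads, 9 when exon-skipping events were fitted and adjusted alone, 2 by limma on the arcsine square root of inclusion (of which 1 is among the 5) and 61 by the authors' deposited FDR, which also covers events with few reads. Leaving out 1 library at a time gave 1 to 4. It was 5 with a minimum of 10 reads (3 of them shared), 5 with 1 event per exon, 5 with a moderated dispersion of at least 1 (an alternative chosen after seeing the data), 7 with a minimum difference of 0.05 and 4 with 0.2. Of 51 recomputed values for the called events 26 were still called and none reversed, and the causes of the losses were not tested. Mean inclusion was 0.8689 in the wild type and 0.8708 in sgs3 without a read minimum, and 0.9236 and 0.9246 with a minimum of 50, chosen after seeing the data. Among host genes 0 rose and 3 fell without a filter on low TPM, and 7 fell after scaling. Leaving out 1 replicate gave 0 to 27 risen and 0 to 610 fallen. For settings other than scaling, shares over all tested genes are not given, so these counts cannot be read as particular to host genes. Same-numbered libraries correlated in their deviations at -0.527, 0.212 and -0.091, which gave no sign that replicate numbers pair the samples. With 3 libraries per group these values cannot exclude pairing. With the replicate number as a block 0 rose and 3 fell. No paired analysis was possible for splicing because the libraries of a cell carry no numbers. Depth limits the skipped form, which had a median of 3 reads.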
